A study of Mus musculus with 9 samples.

Results

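This report covers 10 genes of the endothelial lineage and of its common precursor with blood, the haemangioblast, in mouse embryonic stem cells (mESC). The genes were chosen by name and are *Kdr*, *Flt1*, *Tek*, *Cxcr4* and *Eng*, which encode receptors, *Pecam1* and *Cdh5*, which encode junction proteins, and *Etv2*, *Tal1* and *Lmo2*, which encode transcription regulators. All 10 were found among the 29069 genes of the expression table, and 9 of the 10 passed the minimum mean of 5 normalised counts that 18156 genes passed. Only *Cdh5* did not.

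Total RNA was sequenced from the D3 line of mESC, an established line grown without feeder cells, after 24 h in 1 of 3 media, with 3 replicates per medium. Ground-state medium (GS) contained the MEK inhibitor PD0325901 at 1 μM, the GSK-3 inhibitor CHIR99021 at 3 μM and leukemia inhibitory factor (LIF) at 20 ng/mL. Neither inhibitor nor LIF was present in differentiation medium (DM), which held 10% fetal bovine serum. The NO medium was DM with 250 μM of DETA/NO, which releases nitric oxide. The cells of all 3 media came from this same line. Each sample came from its own dish by the methods of the study, and whether the dishes were set up on separate occasions is not stated, so the p-values measure the spread among these dishes.

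The haemangioblast arises from mesoderm that expresses *Kdr*, the main receptor for vascular endothelial growth factor (VEGF). The ETS factor *Etv2* directs such cells towards endothelium and blood, and *Tal1* and *Lmo2* act with each other in a DNA-binding complex at blood and vascular genes. Mature endothelial cells are held together by VE-cadherin, encoded by *Cdh5*, and are kept quiescent by angiopoietin signalling through *Tek*.

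The values, called normalised counts below, are reads per gene scaled for sample size and rounded. Their totals were alike, from 18290445 to 20508679 per sample, and the spacing of low values gave an estimated 14307523 to 27061091 reads per sample, with NO replicate 3 the shallowest. The 8 stem cell markers (among them *Pou5f1*, *Sox2* and *Nanog*) summed to 92659 to 94917 (GS), 73098 to 77811 (DM) and 46247 to 75098 (NO). NO replicate 2 gave the lowest of these sums and stood apart from the other NO samples for many genes. The single stem cell markers did not move together in DM. The mean of *Tfcp2l1* was 31053 in GS and 11299 in DM, and *Nanog*, *Esrrb* and *Dppa3* were also lower in DM on average. *Pou5f1* (11842 in GS and 14145 in DM), *Sox2*, *Zfp42* and *Utf1* were higher in DM on average. The endothelial markers were uneven, since *Cdh5* read at most 4 normalised counts and *Cd93* at most 1 in any sample, whereas *Robo4* read 38 to 376, *Cldn5* 15 to 195, *Esam* 7 to 57, *Plvap* 18 to 44 and *Vwf* 304 to 630. In bulk RNA, fewer cells that express a gene and less RNA per cell cannot be told apart.

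Of the 9 members tested, 5 differed among the 3 media in the moderated F test of limma with Benjamini-Hochberg adjustment, namely *Tek*, *Eng*, *Lmo2*, *Cxcr4* and *Kdr*. Across all genes tested, 23.3% passed the same test. The comparisons are written as NO/GS for NO against GS, and likewise for NO/DM and DM/GS. A member was called higher or lower where the adjusted p was under 0.05 and the change at least 2-fold. Against GS, NO had 3 members called higher (*Tek*, *Eng* and *Lmo2*) and 0 lower, while 10.1% of all genes were called higher and 1.64% lower. In NO/DM, 3 members were called higher (*Tek*, *Cxcr4* and *Eng*) and 0 lower, beside 6.78% and 1.77% of all genes. In DM/GS, limma called 0 members in either direction. The background there was 2.94% of genes higher and 1.27% lower. The median log2 fold change of the tested members was 0.23 in DM/GS, 0.62 in NO/GS and 0.99 in NO/DM, and the median of all genes was within 0.02 of 0 in each comparison. The 3 comparisons share samples, so their counts are not independent of each other. The members were chosen with earlier results of these data known.

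**Figure D1:**
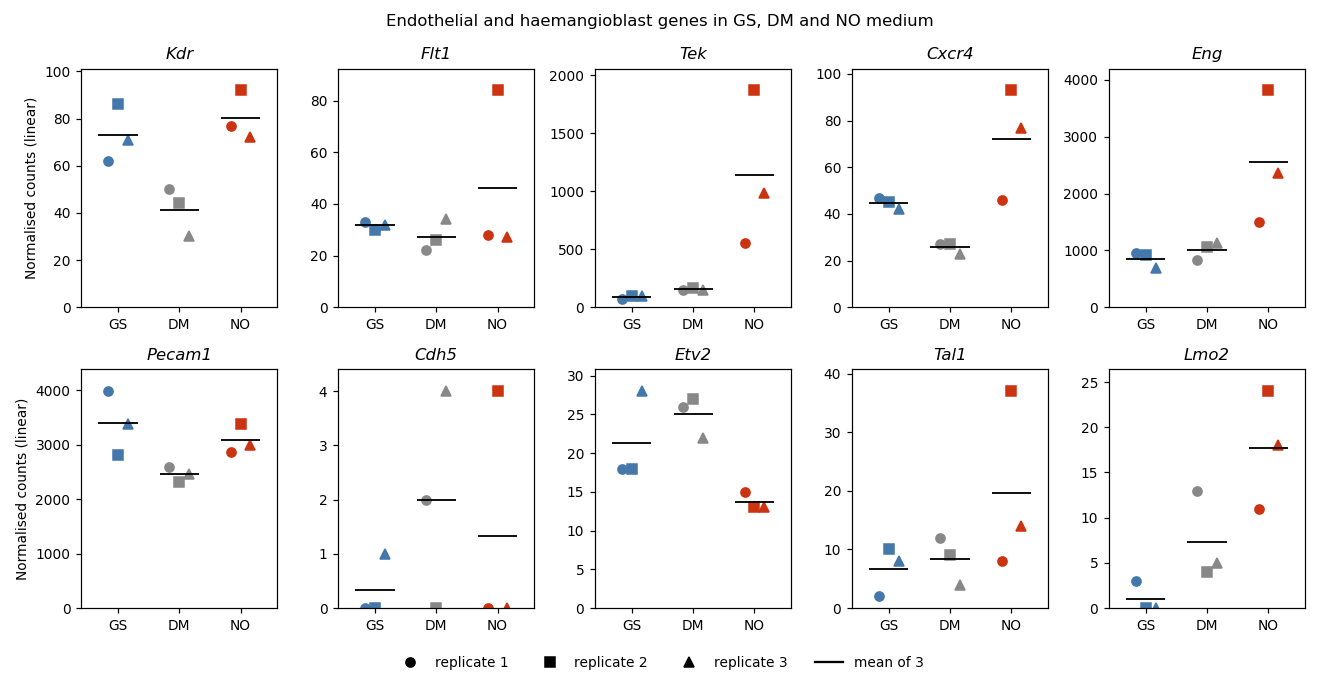
Normalised counts of the 10 genes in each sample, on linear axes from 0 that differ between panels, with 1 panel per gene, the 3 replicates of GS, DM and NO as points of different shape and their mean as a bar. *Tek* and *Eng* sit higher in all 3 NO samples than in any GS or DM sample, *Etv2* sits lower, and *Cdh5* is at 4 or less throughout.

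To show the sequence in front of the receptors called in NO/DM, the 250 bases before the RefSeq start (GRCm38.p6) are printed for *Tek*, *Eng* and *Cxcr4*. The same 250 bases are printed for *Etv2*, the ETS factor of the lineage, which was called in no comparison. They are written 5′ to 3′ in the direction of the gene, with capitals at GGAA, the core letters of ETS binding sites, or at TTCC, its reverse complement. The windows lie at chr4:94739039-94739288 (plus strand) for *Tek*, chr2:32646345-32646594 (plus strand) for *Eng*, chr1:128592300-128592549 (minus strand) for *Cxcr4* and chr7:30635853-30636102 (minus strand) for *Etv2*.
Tek: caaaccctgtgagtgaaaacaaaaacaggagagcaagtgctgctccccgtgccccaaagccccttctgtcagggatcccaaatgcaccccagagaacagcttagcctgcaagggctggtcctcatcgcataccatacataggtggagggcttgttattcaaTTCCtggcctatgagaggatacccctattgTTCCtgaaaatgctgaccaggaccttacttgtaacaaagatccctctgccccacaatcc
Eng: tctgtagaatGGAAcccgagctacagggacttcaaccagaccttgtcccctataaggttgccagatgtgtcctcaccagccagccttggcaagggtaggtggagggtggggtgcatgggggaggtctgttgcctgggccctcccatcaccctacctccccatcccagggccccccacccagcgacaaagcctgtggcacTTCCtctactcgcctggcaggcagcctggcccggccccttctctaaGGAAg
Cxcr4: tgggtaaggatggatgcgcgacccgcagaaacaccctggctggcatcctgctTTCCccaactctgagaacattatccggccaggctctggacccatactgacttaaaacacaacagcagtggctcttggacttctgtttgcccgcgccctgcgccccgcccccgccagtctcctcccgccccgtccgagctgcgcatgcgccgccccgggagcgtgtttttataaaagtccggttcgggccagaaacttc
Etv2: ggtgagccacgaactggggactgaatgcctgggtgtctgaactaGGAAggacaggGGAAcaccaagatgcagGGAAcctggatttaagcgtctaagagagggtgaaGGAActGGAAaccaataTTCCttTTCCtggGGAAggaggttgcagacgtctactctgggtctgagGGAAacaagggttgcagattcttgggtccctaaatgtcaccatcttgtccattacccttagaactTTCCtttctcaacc

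The window of *Tek* held 2 matches to GGAA on either strand, that of *Eng* 3, that of *Cxcr4* 1 and that of *Etv2* 10. Of 32851 RefSeq promoter windows of the same length, 93.4% held GGAA, with a median of 3 matches. A share of 0.192% held 10 or more, a cut equal to the count of *Etv2*, the highest among the windows of the members. The table had 8 windows for 7 of the 10 members, and the others, for *Kdr*, *Flt1* and *Tal1*, held 3 or 4 matches each. CACCTG, the E-box of the repressor ZEB1, had 0 matches on either strand in all 8 windows and stood in 17.2% of all windows. ACGTG, the core of hypoxia response elements, likewise had 0 matches, against 16.6% of all windows. GATAA, letters bound by GATA factors, stood once in the window of *Cxcr4* and once in 1 of the 2 windows of *Tal1*, and in 22.6% of all windows. No searched motif holds another within its letters. A match is only a description of these letters.

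*Tek* had the smallest adjusted p of the members. It encodes the receptor tyrosine kinase for angiopoietins and lies on chromosome 4 (GRCm38, 94739289 to 94874976, plus strand). It read 75, 96 and 94 in GS replicates 1 to 3, 145, 169 and 152 in DM, and 557, 1871 and 987 in NO. All DM values lay above all GS values, and all NO values above both. The mean rose from 88.3 ± 11.6 in GS (SD, n = 3) to 1138 ± 669.9 in NO (SD, n = 3). The log2 fold change was 3.51 (SE 0.34, limma adjusted p = 0.000318) in NO/GS and 2.70 (SE 0.34, limma adjusted p = 0.00195) in NO/DM, that is 11.4-fold and 6.48-fold on the log2(value + 1) scale. The difference between DM and GS was 0.81 (SE 0.34), under 2-fold (limma adjusted p = 0.202, or 0.0242 with only the 6 samples compared and 0.0332 without NO replicate 2). Without NO replicate 2 the log2 fold change was 3.06 in NO/GS and 2.25 in NO/DM, with limma adjusted p = 7.18e-05 and 0.000659.

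*Eng* encodes endoglin, a co-receptor for TGF-beta and BMP ligands that is abundant on endothelium (chromosome 2, 32646595 to 32682669, plus strand). Its normalised counts were 949, 917 and 696 in GS, 823, 1067 and 1123 in DM, and 1497, 3818 and 2369 in NO. GS and DM overlapped, and the lowest NO sample lay above the highest of both. *Eng* rose by a log2 fold change of 1.49 in NO/GS (SE 0.28, limma adjusted p = 0.00416) and of 1.26 in NO/DM (SE 0.28, limma adjusted p = 0.0152). The call in NO/DM was not stable. Without NO replicate 2 the change was 0.92, under 2-fold, and without DM replicate 1 the limma adjusted p was 0.0591. The exons of *Eng* share 61 bases with *Fpgs* on the opposite strand.

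*Cxcr4* encodes the chemokine receptor for CXCL12 and is expressed in early mesendoderm and in migrating vascular and blood precursors (chromosome 1, 128588199 to 128592293, minus strand). It read 47, 45 and 42 in GS, 27, 27 and 23 in DM, and 46, 93 and 77 in NO. All DM values lay under all GS values, but NO overlapped GS, since NO replicate 1 was at the GS level. *Cxcr4* rose 2.64-fold in NO/DM (SE 0.30 on the log2 scale, limma adjusted p = 0.0123), and this call held without each replicate in turn. Neither the difference of -0.78 in DM/GS (SE 0.30, limma adjusted p = 0.162) nor that of 0.62 in NO/GS (SE 0.30, limma adjusted p = 0.160) passed. The rise therefore stood against DM and was not shown against GS.

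*Kdr* resembled *Cxcr4* in its order of media (chromosome 5, 75932827 to 75978458, minus strand). Its values were 62, 86 and 71 in GS, 50, 44 and 30 in DM, and 77, 92 and 72 in NO. The DM samples lay under all others, whereas GS and NO overlapped. The log2 difference in NO/DM was 0.97 (SE 0.26, limma adjusted p = 0.0329), or 1.95-fold, and missed the 2-fold minimum. Its adjusted p rose to 0.05 or more in 6 of the 9 fits that left out a sample. The difference in DM/GS was -0.82 (SE 0.26, limma adjusted p = 0.0940). In NO/GS it was 0.14 (SE 0.26, limma adjusted p = 0.744), and it turned to -0.29 after quantile normalisation, without passing the test in either case.

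*Flt1* encodes the other main VEGF receptor, a high-affinity one that binds VEGF and placental growth factor (chromosome 5, 147561604 to 147726011, minus strand). It read 33, 30 and 32 in GS, 22, 26 and 34 in DM, and 28, 84 and 27 in NO. The media overlapped, and NO replicate 2 alone was high. None of its 3 comparisons passed (F test of limma, adjusted p = 0.550).

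**Figure D2:**
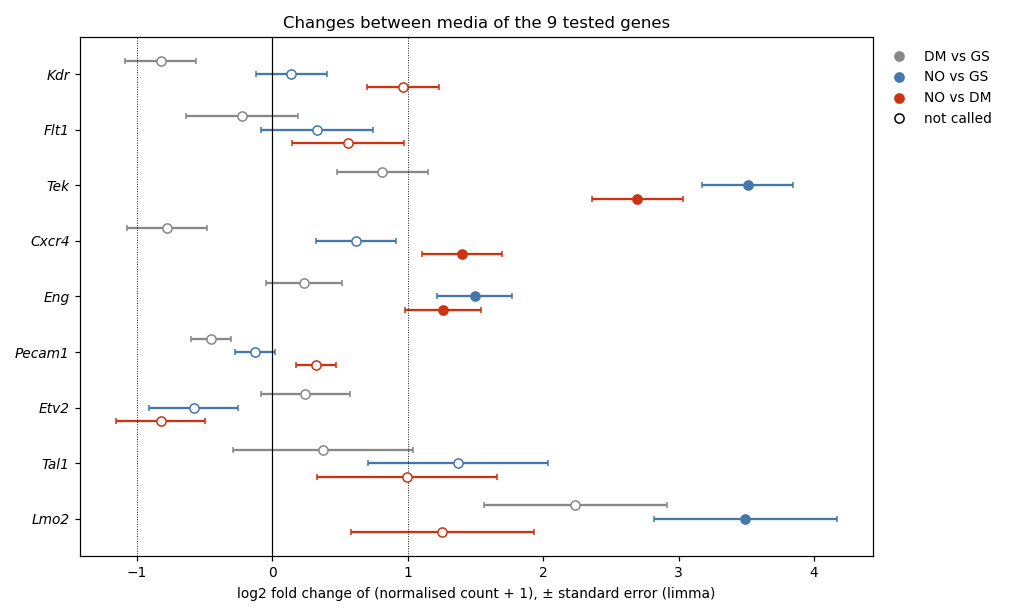
Log2 fold change of the 9 tested genes in DM/GS, NO/GS and NO/DM, with bars of 1 standard error from limma. Filled points passed both thresholds, which were *Tek*, *Eng* and *Lmo2* in NO/GS and *Tek*, *Cxcr4* and *Eng* in NO/DM.

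Of the junction genes, *Pecam1* did not pass any test, and *Cdh5*, under the minimum mean, was not tested. *Pecam1*, an adhesion molecule of endothelium that mESC also carry on their surface (chromosome 11, 106654217 to 106750628, minus strand), was the most abundant member in GS and DM. Its values were 3988, 2809 and 3388 in GS, 2600, 2317 and 2472 in DM, and 2868, 3389 and 2995 in NO. All DM values lay under those of the other media. The log2 difference was -0.45 in DM/GS (SE 0.15, limma adjusted p = 0.100) and 0.32 in NO/DM (SE 0.15, limma adjusted p = 0.158). *Cdh5* (chromosome 8, 104101625 to 104144511, plus strand) read 0, 0 and 1 in GS, 2, 0 and 4 in DM, and 0, 4 and 0 in NO. These correspond to an estimated 1, 6 and 3 reads summed over the replicates of GS, DM and NO, so no difference was detectable at this depth.

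Among the transcription regulators only *Lmo2* was called. *Lmo2* encodes a LIM-domain bridging protein without DNA binding of its own (chromosome 2, 103957986 to 103981878, plus strand). It read 3, 0 and 0 in GS, 13, 4 and 5 in DM, and 11, 24 and 18 in NO. The GS samples lay under all others, and DM and NO overlapped. The gene passed the minimum mean only through its DM and NO values. Summed over replicates these were an estimated 3 reads for GS, 26 for DM and 48 for NO. The ratio of these sums per read sequenced was 16.3 in NO/GS (exact 95% binomial interval 5.26 to 81.9) and 7.03 in DM/GS (2.15 to 36.3), intervals that cover counting error only. The fitted log2 fold change in NO/GS was 3.49 (SE 0.67, limma adjusted p = 0.00486). With such low counts it moved with the pseudocount, to 4.18 at 0.5 and 1.91 at 5, and it was 4.16 without GS replicate 1. In DM/GS *Lmo2* was not called (limma adjusted p = 0.0755), but without GS replicate 1 it was (limma adjusted p = 0.0316). In NO/DM the difference of 1.25 did not pass (SE 0.67, limma adjusted p = 0.228).

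*Tal1*, the basic helix-loop-helix partner of *Lmo2* (chromosome 4, 115056426 to 115071755, plus strand), read 2, 10 and 8 in GS, 12, 9 and 4 in DM, and 8, 37 and 14 in NO. The media overlapped, and the largest difference, 1.37 on the log2 scale in NO/GS, did not pass (SE 0.67, limma adjusted p = 0.167). *Etv2* was lowest in NO (chromosome 7, 30633616 to 30635852, minus strand). It read 18, 18 and 28 in GS, 26, 27 and 22 in DM, and 15, 13 and 13 in NO. All NO values lay under all GS and DM values, yet the differences of -0.58 in NO/GS (SE 0.33, limma adjusted p = 0.231) and -0.82 in NO/DM (SE 0.33, limma adjusted p = 0.111) did not pass. Of the 10 genes, *Tek* and *Eng* were the members called higher in NO against both other media.

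Per kilobase of merged exon, the levels could be compared between genes. In GS the order was *Pecam1* at 545.1 normalised counts per kilobase, *Eng* at 211, *Cxcr4* at 24.7, *Etv2* at 20.4, *Tek* at 18.7, *Kdr* at 8.08, *Flt1* at 2.34, *Tal1* at 1.52, *Lmo2* at 0.462 and *Cdh5* at 0.0793. The ranges of *Cxcr4*, *Etv2* and *Tek* overlapped from each to the next, as did those from *Flt1* down to *Cdh5*. In DM *Tek* passed to the third place at 33.0 ± 2.62 (SD, n = 3), separate from *Etv2* at 23.9 and *Cxcr4* at 14.2, and the ranges of neighbours from *Kdr* at 4.58 downwards overlapped. In NO *Eng* at 632.7 ± 289.6 (SD, n = 3) and *Pecam1* at 495.2 ± 43.6 (SD, n = 3) overlapped, and *Tek* followed at 241.6 ± 142.2 (SD, n = 3). *Kdr* at 8.90, *Lmo2* at 8.16, *Tal1* at 4.49 and *Flt1* at 3.43 overlapped from each to the next. *Tek* thus overlapped *Etv2* in GS, while in NO it lay between *Pecam1* above and *Cxcr4* below, separate from both.

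The spread among the NO replicates was wide for the genes called there. Against the mean of DM, *Tek* was at 3.59, 12.1 and 6.35 times that mean in NO replicates 1, 2 and 3. The same ratios were 1.49, 3.80 and 2.36 for *Eng* and 1.79, 3.62 and 3.00 for *Cxcr4*. Replicate 2 was the highest NO sample for every member other than *Etv2*. Markers of other cell types moved with it. The 10 listed trophoblast genes in the table summed to 1364, 3004 and 1840 normalised counts in NO replicates 1, 2 and 3, against 1054 to 1223 in DM and 1429 to 1547 in GS. Of these 10, 4 were called higher in NO/DM (*Gata3*, *Tfap2c*, *Hand1* and *Krt7*) and 0 lower. The calls in NO/GS were 3 higher (*Krt18*, *Hand1* and *Krt7*) and 1 lower (*Cdx2*), and *Gata3* and *Tfap2c* were not called there. *Krt7* read 65, 484 and 146 in NO and 4 to 15 elsewhere. The primitive endoderm factor *Gata6* read 20, 234 and 90 in NO and 5 to 15 elsewhere, and 1 of the 6 tested primitive endoderm genes was called in NO/DM. Of the same 6, 1 was called higher (*Gata6*) and 1 lower (*Lama1*) in NO/GS. Of the 11 tested mesoderm and primitive streak genes, 4 were called higher in NO/DM (*T*, *Mesp2*, *Hand1* and *Wnt3*) and 0 lower. In NO/GS 4 were called higher (*Mesp1*, *Mesp2*, *Hand1* and *Wnt3*) and 3 lower (*T*, *Eomes* and *Gsc*). *Mesp1* and *Wnt3* passed the minimum mean only through their NO values. *T*, the factor that defines early mesoderm, read 137, 183 and 131 in GS, 10, 1 and 0 in DM, and 8, 28 and 22 in NO, so it fell from GS in both media. The part of these cell types in the changes of the members was not tested. For blood cells, *Ptprc* was at 2 or less and the adult globin genes at 3 or less in every sample, and the sum of the macrophage and blood list, 458 to 695 in NO and 200 to 266 in GS, was mostly *Cd68*. Neuroectoderm markers summed to 1115 to 1412 in NO, 1446 to 1576 in DM and 1431 to 1850 in GS, with *Zic1* called higher and *Pax6* lower in NO/DM. *Zic1* passed the minimum mean only through its NO values. Fibroblast markers summed to 318 to 494 across all samples and went in both directions. *Col1a1* rose to 39, 88 and 39 in NO from 13 to 21 elsewhere, and *Thy1* to 158 to 211 in DM and NO from 59 to 60 in GS. *Pdgfrb* fell from 378, 219 and 266 in GS to 189, 163 and 216 in DM and 175, 110 and 152 in NO, under 2-fold on average. *Col1a2* and *Col3a1* were called in no comparison.

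**Figure D3:**
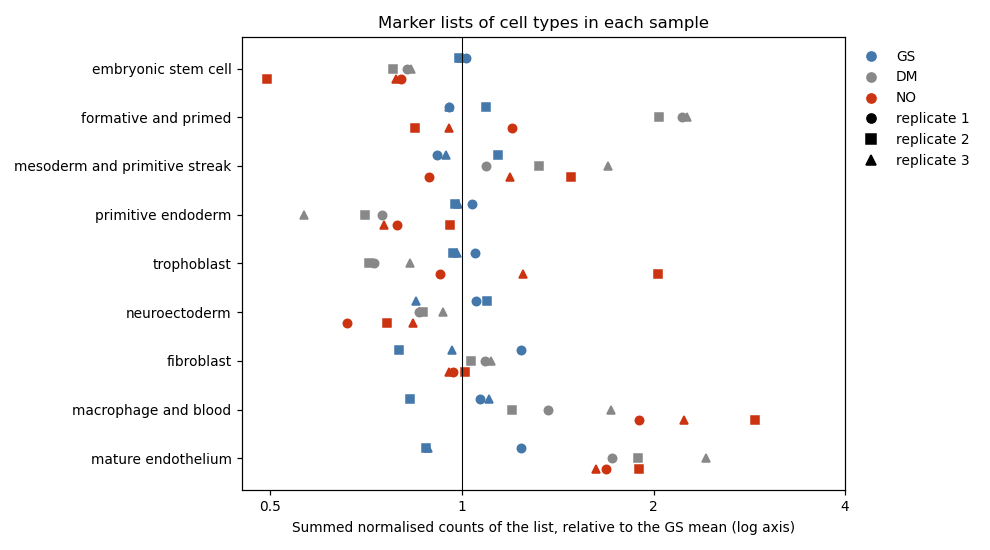
Summed normalised counts of each cell type marker list in every sample, as a ratio to the mean of the GS samples on a log axis, with media by colour and replicates by shape. NO replicate 2 is farthest to the right for trophoblast, where its sum is 3004, and farthest to the left for stem cell markers, where it is 46247.

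For each member that passed the F test, the genes with the most similar profile over the 9 samples are given as a description by Pearson's r of log2(value + 1), which rests largely on the contrast of the 3 media. *Tek* was most like *Aox4* (r = 0.997), *Plch2* (r = 0.994) and *Cacna1e* (r = 0.994). *Aox4* read 10 to 15 in GS, 23 to 29 in DM and 95, 307 and 169 in NO, the order of replicates seen for *Tek*. *Eng* was most like *Bscl2* (r = 0.993), *Slc25a42* (r = 0.993) and *Notch3* (r = 0.992), the last of which read 2585, 7632 and 3898 in NO. Among the genes most like *Cxcr4* were *Nrcam* (r = 0.989) and *Rell1* (r = 0.984). For *Kdr* they were *Fst* (r = 0.960), *Phldb2* (r = 0.958) and *Kbtbd2* (r = 0.952), and for *Lmo2* they were *Thnsl2* (r = 0.987), *Dgkd* (r = 0.975) and *Esyt3* (r = 0.964).

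The partners of each receptor were examined next, over 83 further genes of vascular and blood pathways in the table, 66 of them tested. In DM/GS 8 were called higher and 4 lower, in NO/GS 14 and 6, and in NO/DM 10 and 6. The share called was 18.2%, 30.3% and 24.2% of the 66, beside 4.2%, 11.7% and 8.55% of all genes tested. These shares of all genes are also the background for the counts of single lists below. The lists were chosen with earlier results of these data known, so an excess over this background is only a description. Without GS replicate 3 the totals were 7 in DM/GS and 12 in NO/GS, and in NO/DM 10 were called without NO replicate 2 and 26 without NO replicate 1. After quantile normalisation the counts in NO/GS were 9 and 8, and in NO/DM 8 and 9, so the balance of directions depended on the scaling. Among all genes, quantile normalisation moved the calls in NO/GS from 1830 higher and 297 lower to 1304 and 629, and in NO/DM from 1231 and 321 to 959 and 514. The median log2 fold change of the 66 genes was 0.24, 0.22 and 0.02 in DM/GS, NO/GS and NO/DM.

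In the VEGF axis, 3 of 8 tested genes were called higher in NO/GS and 0 lower. The ligand *Vegfa*, which binds *Kdr* and *Flt1*, read 1204, 774 and 957 in GS, 645, 821 and 1097 in DM, and 479, 526 and 459 in NO. All NO values lay under all others, and the log2 fold change was -0.98 in NO/GS (SE 0.21, limma adjusted p = 0.00771), just short of 2-fold. The co-receptor *Nrp1* read 7, 17 and 16 in GS, 12, 21 and 17 in DM, and 59, 530 and 131 in NO. It rose by 3.58 on the log2 scale in NO/GS (SE 0.65, limma adjusted p = 0.00349) and by 3.22 in NO/DM (SE 0.65, limma adjusted p = 0.0102), and without NO replicate 2 by 2.72 and 2.37. Without NO replicate 1 the values were 4.30 and 3.94. Its exons share 80 bases with *Mir1903*. *Flt4*, the receptor of lymphatic endothelium, rose already in DM, from 96, 68 and 62 in GS to 167, 175 and 213 in DM and 193, 314 and 254 in NO. Its log2 fold change was 1.30 in DM/GS (SE 0.24, limma adjusted p = 0.00656) and 1.74 in NO/GS (SE 0.24, limma adjusted p = 0.00103). Its ligand *Vegfc* was higher by 0.94 in DM/GS (SE 0.17, limma adjusted p = 0.00710), under 2-fold. *Pgf*, a ligand of *Flt1*, read 18, 135 and 47 in NO and 6 to 20 elsewhere. It was called in NO/GS (log2 fold change 2.21, limma adjusted p = 0.0425), but not in 5 of the 9 fits that left out a sample (GS replicate 2 or 3, DM replicate 1, NO replicate 2 or 3) or with the replicate number as a block (limma adjusted p = 0.0632). *Vegfb* and *Figf* did not pass in any comparison.

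No ligand of *Tek* was called in any comparison. *Angpt2*, a context-dependent ligand, read 161, 169 and 156 in GS, 151, 154 and 143 in DM, and 200, 530 and 201 in NO. All NO values lay above the others, but the difference of 0.89 in NO/DM did not pass (SE 0.31, limma adjusted p = 0.0781). *Angpt1*, the activating ligand, was at 4 or less in every sample and *Angpt4* at 6 or less. The related receptor *Tie1* read 3, 5 and 5 in GS, 2, 5 and 2 in DM, and 6, 19 and 25 in NO. Its call in NO/DM (log2 fold change 2.02, limma adjusted p = 0.0418) was lost in 8 of the 9 fits that left out a sample, all but that without NO replicate 1. *Tie1* passed the minimum mean only through its NO values.

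*Cxcl12*, the ligand of *Cxcr4*, moved opposite to its receptor in NO/DM. It read 11, 6 and 3 in GS, 22, 20 and 17 in DM, and 4, 3 and 1 in NO. Every NO value was below every DM value, with a log2 fold change of -2.59 (SE 0.54, limma adjusted p = 0.0119). The scavenger receptor *Ackr3*, which also binds CXCL12, read 282, 253 and 197 in GS, 164, 147 and 185 in DM, and 129, 158 and 161 in NO. Its difference of -0.70 in NO/GS was under 2-fold (SE 0.20, limma adjusted p = 0.0281).

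Of the 6 tested genes that act with endoglin, 3 were called higher in NO/DM and 0 lower. *Acvrl1*, the receptor kinase that endoglin assists, read 57, 29 and 26 in GS, 53, 65 and 86 in DM, and 114, 321 and 166 in NO. It rose by 2.35 on the log2 scale in NO/GS (SE 0.40, limma adjusted p = 0.00252). Its call in NO/DM (1.44, SE 0.40, limma adjusted p = 0.0344) was lost in 6 of the 9 fits that left out a sample, those without GS replicate 2, any DM replicate, or NO replicate 2 or 3. *Tgfbr3*, a co-receptor related to endoglin, read 176, 157 and 140 in GS, 36, 53 and 73 in DM, and 145, 887 and 286 in NO. NO lay above DM throughout, with a log2 fold change of 2.66 (SE 0.51, limma adjusted p = 0.00840), of 1.95 without NO replicate 2 and of 3.26 without NO replicate 1. *Tgfbr2*, the receptor kinase that binds TGF-beta first, read 57, 61 and 60 in GS, 26, 39 and 43 in DM, and 79, 128 and 80 in NO, a log2 fold change of 1.38 in NO/DM (SE 0.28, limma adjusted p = 0.0107). The ligand *Tgfb1* was called higher in DM/GS (1.62, SE 0.35, limma adjusted p = 0.0186), but not without GS replicate 2, GS replicate 3 or DM replicate 3. The exons of *Acvrl1* share 127 bases with *Gm16031*, and those of *Tgfbr3* share 297 bases with *Gm43422*.

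**Figure D4:**
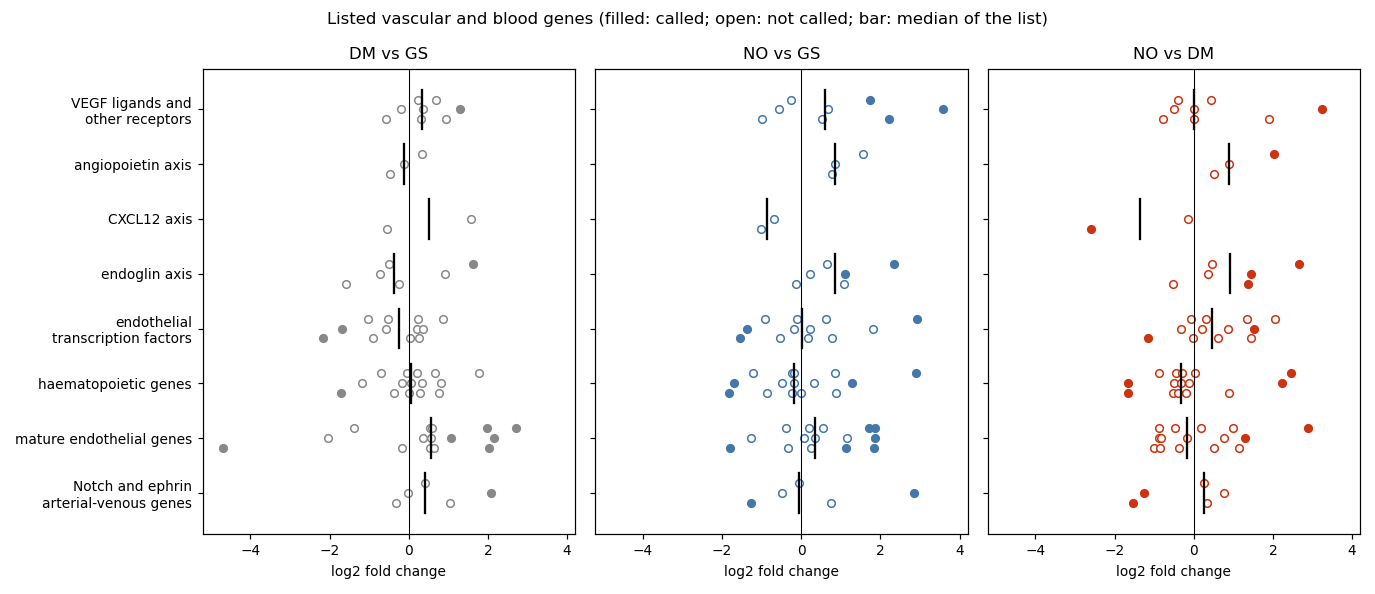
Log2 fold changes of the tested genes of each vascular or blood list in DM/GS, NO/GS and NO/DM, with 1 point per gene, called genes filled and a black bar at the median of the list. In the endoglin list 3 of 6 genes are called higher in NO/DM, and in the mature endothelial list 5 of 15 are called higher in DM/GS.

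The transcription factors and blood genes were mixed in direction. Of 12 tested endothelial factors, 0 were called higher and 2 lower in DM/GS, 1 and 2 in NO/GS, and 1 and 1 in NO/DM. *Gata2*, needed for blood stem cells, fell from 177, 101 and 94 in GS to 29, 27 and 22 in DM and 39, 55 and 30 in NO (log2 fold change -2.16, SE 0.32, limma adjusted p = 0.00202 in DM/GS). *Hhex*, a homeobox factor of early endothelium and endoderm, read 75, 89 and 110 in GS, 48, 60 and 38 in DM, and 114, 197 and 120 in NO. It rose by 1.52 in NO/DM (SE 0.28, limma adjusted p = 0.00719), the order of media seen for *Kdr* and *Cxcr4*. *Nr2f2*, a factor of venous identity, was called lower in DM/GS (-1.68, limma adjusted p = 0.0321) and in NO/GS (-1.37, limma adjusted p = 0.0364), and each call was lost in 6 of the 9 fits that left out a sample. These were the fits without any GS replicate, DM replicate 1 or NO replicate 3 for both calls, without DM replicate 2 for the first and without NO replicate 2 for the second. The exons of *Nr2f2* share 643 bases with *B130024G19Rik*. The Notch target *Hey1* was called lower in NO/DM (-1.17, limma adjusted p = 0.0252), a call lost in 5 of those 9 fits, without any DM replicate or NO replicate 2 or 3.

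Of 15 tested blood genes, 2 were called higher and 2 lower in NO/GS, and 2 and 2 in NO/DM. *Itga2b*, an integrin of the first blood progenitors, read 58, 38 and 22 in GS, 44, 71 and 64 in DM, and 130, 716 and 234 in NO. It rose by 2.90 in NO/GS (SE 0.53, limma adjusted p = 0.00368), and by 2.22 without NO replicate 2. Its call in NO/DM (2.24, SE 0.53, limma adjusted p = 0.0199) was lost without DM replicate 1 and was 1.56 without NO replicate 2. *Spi1*, the myeloid ETS factor, read 16, 19 and 16 in GS, 6, 8 and 7 in DM, and 29, 65 and 41 in NO, a log2 fold change of 2.46 in NO/DM (SE 0.37, limma adjusted p = 0.00334). Its higher call in NO/GS was lost in 5 of the 9 fits that left out a sample, those without any GS replicate or NO replicate 2 or 3. After quantile normalisation that call was also lost. *Kit*, the stem cell factor receptor of blood and germ cells, fell from 6239, 6246 and 6247 in GS to 2001, 2011 and 1682 in DM and 2439, 1458 and 2047 in NO (-1.72 in DM/GS, SE 0.17, limma adjusted p = 0.000219). *Myb*, a factor of definitive blood formation whose exons share 559 bases with *Gm26577*, fell to 61, 33 and 34 in NO from 121 to 158 in the other media (-1.82 in NO/GS, SE 0.26, limma adjusted p = 0.00111). Of the partners of *Tal1* and *Lmo2*, *Ldb1*, *Lyl1* and *Gata1* did not pass in any comparison. *Tcf3*, which dimerises with *Tal1*, differed by -0.50 in NO/DM (SE 0.13, limma adjusted p = 0.0248), under 2-fold.

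Some genes of mature endothelium rose in DM as well as in NO, and the sum of the 7 markers of this type in the table was 407 to 573 in GS, 797 to 1121 in DM and 753 to 880 in NO. This sum was mostly *Vwf*, which was called in no comparison, and *Robo4*, with a mean of 42 in GS and 286 in DM. *Plvap* was also called in no comparison. Of 15 tested genes of mature endothelium, 5 were called higher and 1 lower in DM/GS, 5 and 1 in NO/GS, and 2 and 0 in NO/DM. *Robo4*, a guidance receptor of endothelium, read 38, 50 and 38 in GS, 216, 266 and 376 in DM, and 158, 127 and 184 in NO, a log2 fold change of 2.71 in DM/GS (SE 0.25, limma adjusted p = 0.000136). In NO it lay under DM in every sample, by -0.85 (SE 0.25, limma adjusted p = 0.0430), under 2-fold. *Nos3*, the endothelial nitric oxide synthase, had the same order of media, at 23, 26 and 19 in GS, 79, 90 and 106 in DM, and 71, 41 and 44 in NO. It was called higher in DM/GS, by 1.85 to 2.07 on the log2 scale over the 9 fits that left out a sample. Its call in NO/GS was lost without GS replicate 3 or NO replicate 1 and after quantile normalisation. In NO/DM *Nos3* was not called, except without NO replicate 1 or after quantile normalisation. Its exons share 1040 bases with *Gm15587* and 294 with *Atg9b*, both on the opposite strand. *Mmrn2*, a matrix protein of vessels, followed *Eng* instead, with 722, 874 and 732 in GS, 1128, 1076 and 1268 in DM, and 1806, 4640 and 2658 in NO. It rose by 1.86 in NO/GS (SE 0.26, limma adjusted p = 0.00113) and by 1.28 in NO/DM (SE 0.26, limma adjusted p = 0.0111), but by 0.92 in NO/DM without NO replicate 2. *S1pr1*, the sphingosine phosphate receptor of vessels, fell from 250, 165 and 233 in GS to 7, 8 and 7 in DM, and read 22, 124 and 78 in NO. The log2 fold change was -4.68 in DM/GS (SE 0.50, limma adjusted p = 0.000288) and 2.87 in NO/DM (SE 0.50, limma adjusted p = 0.00577). In NO/DM it was 2.36 to 3.58 over the 9 fits that left out a sample, and called in all of them. *S1pr1* was called lower in NO/GS (-1.81), a call lost without any of the GS replicates and without a trend.

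The arterial ligand and its venous receptor moved apart in NO/GS. *Efnb2*, the arterial ephrin, rose from 30, 55 and 37 in GS to 134, 785 and 231 in NO (2.85, SE 0.50, limma adjusted p = 0.00290), and by 2.13 without NO replicate 2. It read 170, 161 and 182 in DM, a call against GS (2.09, limma adjusted p = 0.0276) that was lost without any of the GS or DM replicates. *Ephb4*, its venous receptor, fell from 1447, 1033 and 946 in GS and 993, 1059 and 1311 in DM to 604, 308 and 547 in NO. Its log2 fold change was -1.26 in NO/GS (SE 0.25, limma adjusted p = 0.00531) and -1.25 in NO/DM (SE 0.25, limma adjusted p = 0.00974), and without NO replicate 2 it was -0.96 and -0.95, under 2-fold. Its exons share 33 bases with *Zan*. *Notch4*, an endothelial Notch receptor, read 341, 470 and 325 in GS, 739, 800 and 778 in DM, and 390, 132 and 360 in NO, and fell in NO/DM (-1.54, SE 0.34, limma adjusted p = 0.0140).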

How the data were processed

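The authors depleted ribosomal RNA, aligned the reads to the mouse genome (GRCm38, mm10) with STAR 2.4.0a and counted them over exons with featureCounts 1.4.5-p1, without reads that hit several genes or positions. Use of strand was not stated. The deposited values are a normalised score, read counts divided by DESeq2 size factors and rounded by the authors, and a count model was therefore not fitted.

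Here log2(value + 1) was fitted with limma 3.58.1 in R 4.3.3 over all 9 samples and 18156 genes with a mean above 5, with a mean-variance trend and two-sided tests adjusted by the method of Benjamini and Hochberg over all genes. Genes with an adjusted p under 0.05 and a change of at least 2-fold were called, the thresholds of the study. A fold change on this scale understates changes of low genes. Depth was inferred from gaps among low values, and 3 replicates per medium limit the precision. Coordinates and exon lengths are from GENCODE M21 (GRCm38). Promoters are from RefSeq. The sum column of the table was not used.

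All 10 genes are reported. Of each pathway list the text names called genes, at most the 4 with the smallest F-test p, and the ligands, receptors or partners of the 10 genes whatever their call. For each member that passed the F test, the 3 genes most like it were taken by Pearson's r, and 1 of them is not reported here. The members and lists were chosen with earlier results of these data known. Replicate numbers recur in the labels. Deviations of same-numbered samples correlated at 0.159, 0.167 and 0.296 between NO and DM, so these may be pairs, and at -0.232 to 0.0503 in the comparisons with GS. The values given, also in NO/DM, are from the fit without the replicate block, which was an alternative. Alternatives covered the samples fitted, the replicate block, the minimum mean and fold, the pseudocount, the scaling, the trend and leaving out each replicate.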

Additional observations from a re-analysis of the deposited data

How the results depend on the processing

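Of 471 alternative values for single members, 466 kept their call, and 0 called values changed sign. Among uncalled values 5 changed sign, namely after quantile normalisation *Kdr* (-0.29), *Flt1* (-0.096) and *Pecam1* (0.0041) in NO/GS, and *Flt1* in NO/GS without NO replicate 2 (-0.20) and *Tal1* in DM/GS without GS replicate 1 (-0.20). In 13 others the adjusted p crossed 0.05 with no change of call, 9 of them *Kdr* in NO/DM. The calls that changed were *Eng* in NO/DM (limma adjusted p = 0.0525 without a trend, and the 2 omissions given with it), *Kdr* in NO/DM, which reached 2-fold with equal totals (log2 1.05), and *Lmo2* in DM/GS without GS replicate 1. The replicate block changed no call of a member, with 0, 3 and 3 called in DM/GS, NO/GS and NO/DM. With it 12, 18 and 16 pathway genes were called, against 20 in NO/GS without it, where *Pgf* and *Tgfb1* lost their calls. Quantile normalisation moved the median of all genes in NO/GS to -0.11.

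With a minimum log2 fold change of 2, 1 member was called in NO/DM, with 6, 6 and 7 pathway genes and 242, 926 and 660 of all genes in DM/GS, NO/GS and NO/DM. With no minimum fold change, all genes called were 1215, 3640 and 2587. With a minimum mean of 50 they were 505, 1206 and 936, and 3 members passed the F test. With only the 6 samples compared, 912 genes were called in NO/DM. Leaving out each replicate in turn gave 0 to 1 members in DM/GS, 3 to 3 in NO/GS and 2 to 3 in NO/DM, and 3 to 5 in the F test (3 without NO replicate 3). It gave 7 to 16, 12 to 25 and 10 to 26 pathway genes, and 510 to 958, 1398 to 2843 and 785 to 2523 of all genes, the last from 785 without NO replicate 2 to 2523 without NO replicate 1. The causes of these differences were not tested. At an estimated 1 to 6 reads of *Cdh5* per medium no difference was detectable. The summed reads of *Tal1* differed by more than counting error in NO/GS, with a ratio of 2.74 (exact 95% binomial interval 1.59 to 4.91). The ratio in NO/DM was 2.07 (1.30 to 3.34). These intervals leave out the spread among replicates, and NO replicates 1, 2 and 3 gave an estimated 11.41, 28.95 and 10.71 reads. Neither difference passed (limma adjusted p = 0.167 in NO/GS and 0.334 in NO/DM).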
